A study of Mus musculus with 18 samples.

Results

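Peroxiredoxin 1 (Prdx1) was silenced in primary Leydig cells of the mouse, which make testosterone between the seminiferous tubules, and RNA from cells that had received both peroxide and a statin was compared with and without the knockdown. The comparison held 6 of the 18 libraries of the study. 3 libraries came from the group siprdx1+H2O2+FV, which carried an siRNA against Prdx1, and 3 from siNC+H2O2+FV, which carried a control siRNA. Both groups had been transfected with RNAiMAX and exposed to 200 µM H2O2 for 30 min and then to 5 µM fluvastatin (FV) for 6 h, so each difference below is one between siRNAs in cells that shared peroxide and statin. No DMSO is recorded for these 2 groups. The other 4 groups were siNC and siprdx1 cells without H2O2, and siNC+H2O2 and siprdx1+H2O2 cells with 200 µM H2O2 for 30 min, all with 0.1% DMSO in place of fluvastatin for the last 6 h. They gave the same knockdown contrast without H2O2 and after H2O2, and the 3 contrasts share no library. No group had fluvastatin without H2O2. Every group had 3 libraries, which the labels call biological replicates without saying whether they came from separate animals, so p-values measure the spread between these cultures only.

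Prdx1 is an abundant thiol peroxidase of the cytosol that reduces hydrogen peroxide and passes oxidation on to partner proteins. Sulfiredoxin repairs its overoxidized form, and thioredoxin and thioredoxin reductase keep it reduced. Fluvastatin inhibits HMG-CoA reductase, the enzyme that controls the flow into cholesterol and the isoprenoids that anchor small GTPases to membranes. Leydig cells take cholesterol into mitochondria through Star and cleave it with Cyp11a1.

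The 6 libraries held 16773112 to 23455026 counts, and 16432 genes were expressed enough to be tested. The biological coefficient of variation was 7.01%. Levels are given as CPM, that is counts scaled to a common library size after TMM normalization. A gene passed at an adjusted p below 0.05 in edgeR's quasi-likelihood test, and fold changes are siprdx1 against siNC on the log2 scale ± SE with n = 3 per group. Leydig markers were only partly present in these cultures. In the 6 libraries together Cyp11a1 had 88617 counts, Star 57517, Nr5a1 8606 and Lhcgr 574, while Cyp17a1 had 4 and Hsd17b3 had 13. Macrophage genes were abundant, with a summed level of 10312 to 10462 CPM over 22 markers in siNC+H2O2+FV and 10309 to 10795 CPM in siprdx1+H2O2+FV. In such mixed cultures fewer cells of a type and less RNA per cell cannot be told apart.

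The siRNA lowered its target in every library. Prdx1 (ENSMUSG00000028691, chromosome 4, 116685544 to 116700822, GRCm38) stood at 1524, 1528 and 1460 CPM in siNC+H2O2+FV and at 559.9, 519 and 547 CPM in siprdx1+H2O2+FV. The highest knockdown library lay far below the lowest control library. The mean level left was 36%, a log2 fold change of -1.47 ± 0.06 (edgeR adjusted p = 9.89e-13). An exact two-sided permutation test of log2 CPM gave p = 0.1, the smallest that its 20 permutations allow. The fall was -1.64 ± 0.06 after H2O2 and -1.52 ± 0.06 without H2O2, and neither differed from the value with fluvastatin (edgeR adjusted p = 0.439 and 0.94 for the differences). The near-identical copies Gm21399 (98.3% identity over 597 bp) and Gm7204 (97.5%) gave -1.52 ± 0.15 and -1.13 ± 0.40, of which Gm7204 did not pass (edgeR adjusted p = 0.126). Reads may have been split between these copies and Prdx1, so their values are uncertain.

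**Figure D1:**
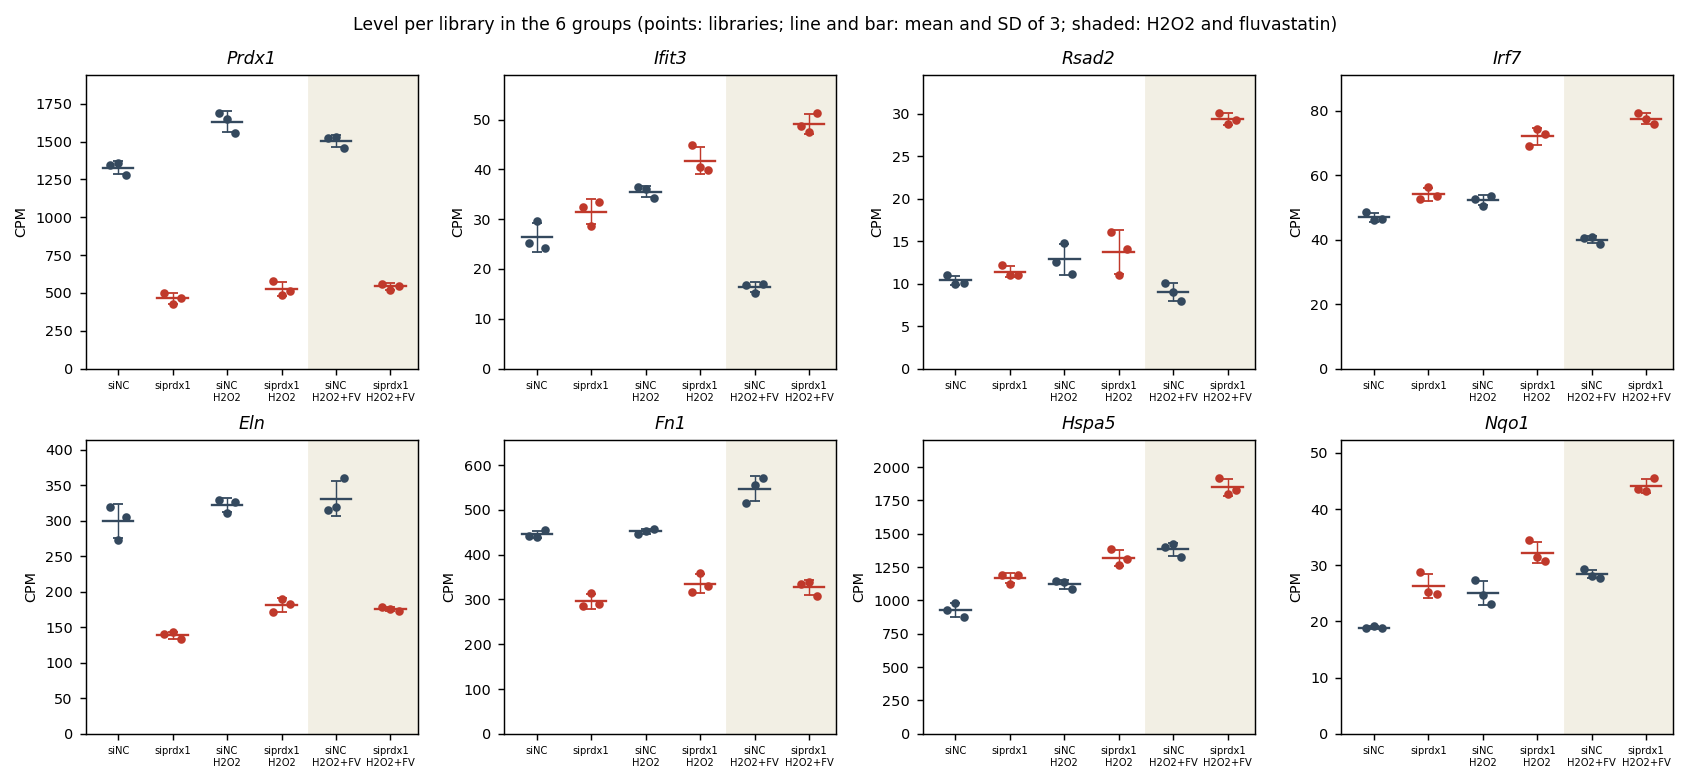
Level in CPM (y axis, from 0) of 8 genes in each of the 18 libraries (points), by group (x axis), with the mean and SD of 3 libraries. In the shaded pair of groups with H2O2 and fluvastatin, Prdx1, Eln and Fn1 are lower and Ifit3, Rsad2, Irf7, Hspa5 and Nqo1 higher in all 3 siprdx1 libraries than in all 3 siNC libraries.

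Beyond its target, the knockdown after H2O2 and fluvastatin went with higher interferon-stimulated genes, with higher levels of some chemokine, chaperone and NRF2 target genes, and with lower levels of many matrix genes. In all 652 of 16432 genes passed (3.97%), 266 higher (1.62%) and 386 lower (2.35%). These shares are the background for the list counts below. Most changes were small, as 190 of the 266 rises and 312 of the 386 falls were under 0.5 on the log2 scale, and 24 rises and 10 falls reached 1. The median over all genes was 0.005. Of the 10 largest rises among named genes that averaged at least 1 CPM and did not overlap between groups, 5 were interferon-stimulated genes (Rsad2, Ifit3b, Ifit3, Ifit1 and Mx1). The falls had a median transcript length of 5957 bases and a median GC content of 48.6%, the rises 2306.5 bases and 52%, and all tested genes 3055 bases and 49.5%. Offsets for GC content and length raised the count to 1108 genes. The count also rested on single libraries, since it was 408 without siNC+H2O2+FV replicate 1, 320 without its replicate 2, 345 without siprdx1+H2O2+FV replicate 1, 369 without its replicate 2 and 408 without its replicate 3.

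**Figure D2:**
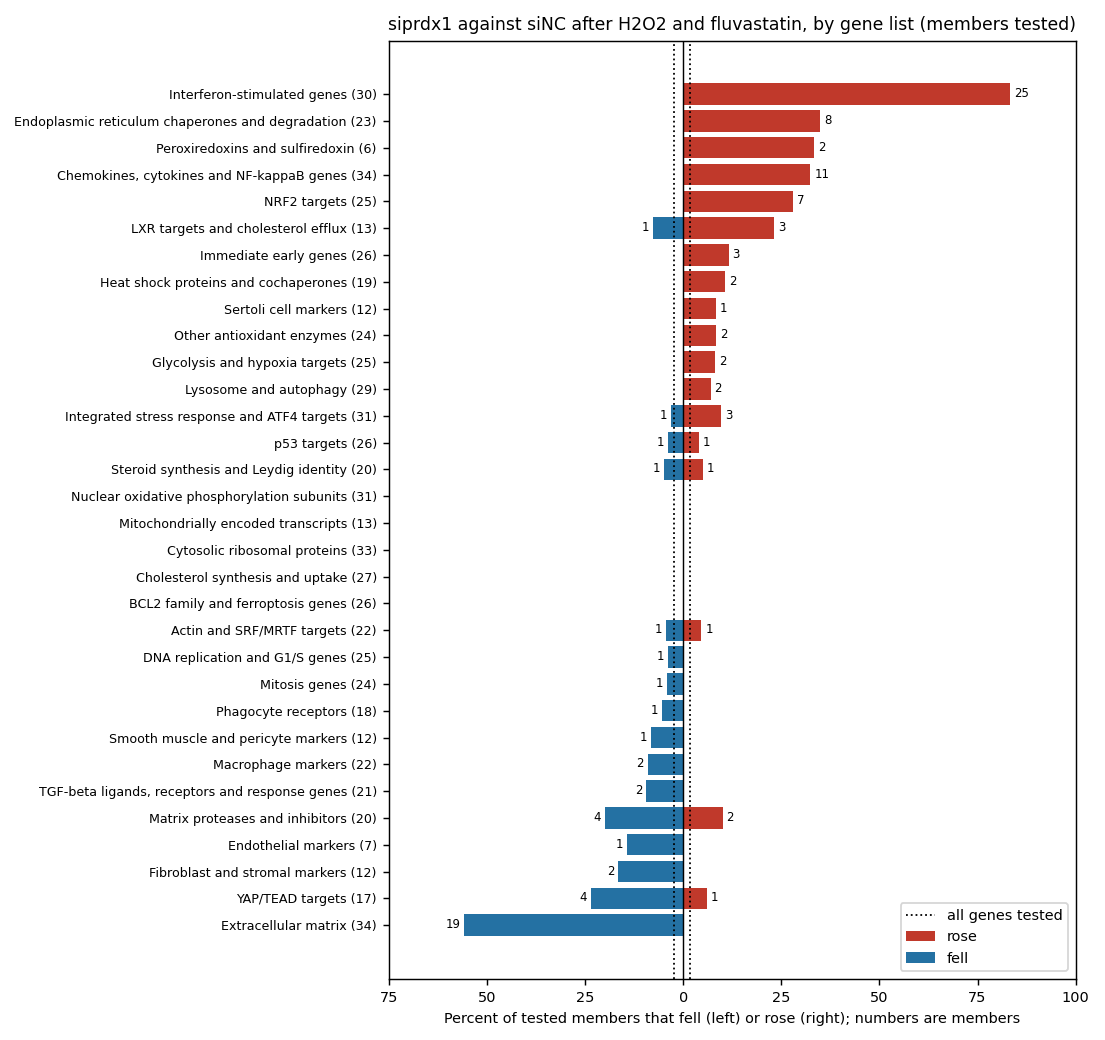
Percent of tested members (x axis) of 32 gene lists (y axis, with the number tested) that fell (left, blue) or rose (right, red) in siprdx1+H2O2+FV against siNC+H2O2+FV, with the number of members at each bar. Dotted lines mark all tested genes, 1.62% higher and 2.35% lower. Interferon-stimulated genes, with 25 members higher, and the extracellular matrix, with 19 lower, have the longest bars in each direction.

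Interferon-stimulated genes were higher as a group in the knockdown. Interferons switch on antiviral genes, many of which carry a short element, the ISRE, in front of their start, and IRF7 is both a product and an amplifier of the pathway. Of 30 members of the list 25 rose and 0 fell, with a list median of 0.72 against 0.005 for all genes. The 25 rises ran from 0.29 to 1.72. In 29 of the 30 members, passed or not, the 3 siprdx1 libraries lay above the 3 siNC libraries, as they did for 10.8% of all tested genes. The count stayed between 23 and 25 when any one library was left out. The 5 members that did not pass were Parp14, Ifih1, Irf9, Ifit2 and Isg20, with values between 0.16 and 0.23.

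The ISRE letters were present in front of some of the genes that rose most. In RefSeq promoters (GRCm38.p6, the 250 bases before the annotated start) an ISRE core (TTTC, any 2 bases, TTTC, on either strand) was found for 10 of the 17 risen list members that have an entry (58.8%). Among all list members with an entry, risen or not, it was found for 10 of 21 (47.6%). It was found for 3.34% of the 11482 tested genes with an entry and for 2.98% of all 32851 promoters. Of the genes that rose outside the list 8.84% held it, and of the genes that fell 3.37%. Ifit1 and Ifit3, neighbours on chromosome 19, each carry a pair of matches, and Rsad2 and Cxcl10 carry 1 each. Ifit3b also carries a pair of matches and is not shown. The 4 shown were chosen among the 10 with a match, as genes whose values per library are given here. They run 5′ to 3′ on the gene's strand with the matched letters in capitals.
Ifit1 promoter, chr19:34640639-34640888, plus strand: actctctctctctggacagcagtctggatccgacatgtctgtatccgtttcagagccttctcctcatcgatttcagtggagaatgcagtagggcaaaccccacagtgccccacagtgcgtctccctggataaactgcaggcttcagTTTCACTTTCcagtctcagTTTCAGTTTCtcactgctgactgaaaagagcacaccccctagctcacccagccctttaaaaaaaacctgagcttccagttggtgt
Ifit3 promoter, chr19:34583279-34583528, plus strand: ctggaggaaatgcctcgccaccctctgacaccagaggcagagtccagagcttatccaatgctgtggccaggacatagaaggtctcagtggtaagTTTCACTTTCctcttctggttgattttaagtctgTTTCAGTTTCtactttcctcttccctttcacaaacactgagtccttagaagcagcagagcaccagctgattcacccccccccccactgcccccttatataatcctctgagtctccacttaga
Rsad2 promoter, chr12:26456453-26456702, minus strand: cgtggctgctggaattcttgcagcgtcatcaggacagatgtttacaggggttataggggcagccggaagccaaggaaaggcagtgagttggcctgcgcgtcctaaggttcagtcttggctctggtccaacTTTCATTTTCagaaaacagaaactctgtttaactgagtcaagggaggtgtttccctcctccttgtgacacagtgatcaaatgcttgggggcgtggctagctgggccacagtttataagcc
Cxcl10 promoter, chr5:92348890-92349139, minus strand: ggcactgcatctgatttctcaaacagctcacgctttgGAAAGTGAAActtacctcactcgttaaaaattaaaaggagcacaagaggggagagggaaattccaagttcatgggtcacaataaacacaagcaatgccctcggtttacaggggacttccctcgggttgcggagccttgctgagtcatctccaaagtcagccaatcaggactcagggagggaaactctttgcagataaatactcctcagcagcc
In Ifit1 the matches begin 104 and 85 bases before the start, in Ifit3 156 and 122 bases, in Rsad2 120 bases and in Cxcl10 213 bases. The match in Cxcl10 is on the opposite strand and reads GAAAGTGAAA. No match was found in the windows of Irf7 and Oasl2. A match describes letters and is not a measured binding site.

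Rsad2 (ENSMUSG00000020641, chromosome 12, 26442746 to 26456452), which encodes viperin, an antiviral radical-SAM enzyme, stood at 10.0, 9.01 and 7.89 CPM in siNC+H2O2+FV and at 30.1, 28.8 and 29.2 CPM in siprdx1+H2O2+FV. Every knockdown library lay far above every control library, and the change was 1.72 ± 0.12 (edgeR adjusted p = 4.63e-09). Ifit3 (ENSMUSG00000074896, chromosome 19, 34583531 to 34588731) and Ifit1 (ENSMUSG00000034459, chromosome 19, 34640871 to 34650009) encode tetratricopeptide proteins that bind or restrict viral RNA. Ifit3 went from 16.8, 15.2 and 16.9 CPM to 48.7, 47.4 and 51.3 CPM, a change of 1.59 ± 0.08 (edgeR adjusted p = 3.33e-11). Ifit1 went from 17.7, 13.4 and 13.1 CPM to 37.1, 36.4 and 38.2 CPM, a change of 1.35 ± 0.09 (edgeR adjusted p = 3.88e-09). The control library siNC+H2O2+FV replicate 1 was the highest of its group for Ifit1 and still below every knockdown library. Ifit3 is 97.8% identical over 1700 bp to Ifit3b, which had 1.62 ± 0.13, so reads may be shared between them.

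Regulators of the pathway rose with the antiviral genes. Irf7 (ENSMUSG00000025498, chromosome 7, 141262706 to 141266481) went from 40.4, 40.9 and 38.7 CPM to 79.3, 77.5 and 75.9 CPM, a change of 0.96 ± 0.05 (edgeR adjusted p = 1.37e-10). Oasl2, of the oligoadenylate synthetase family, went from 32.2, 31.2 and 31.3 CPM to 55, 51.3 and 51.3 CPM (0.74 ± 0.06, edgeR adjusted p = 5.21e-08). Neither gene had overlapping groups. Stat2, the RNA sensors Ddx58 and Dhx58, and Isg15 with its protease Usp18 were among the other rises. Mx1, a dynamin-like antiviral GTPase, was low at 1.35, 1.03 and 1.51 CPM and rose to 3.34, 3.44 and 2.99 CPM (1.33 ± 0.23, edgeR adjusted p = 0.000962). Apol9a, an apolipoprotein L gene outside the list, was also among the largest rises at 1.34 ± 0.19 (edgeR adjusted p = 6.81e-05).

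**Figure D3:**
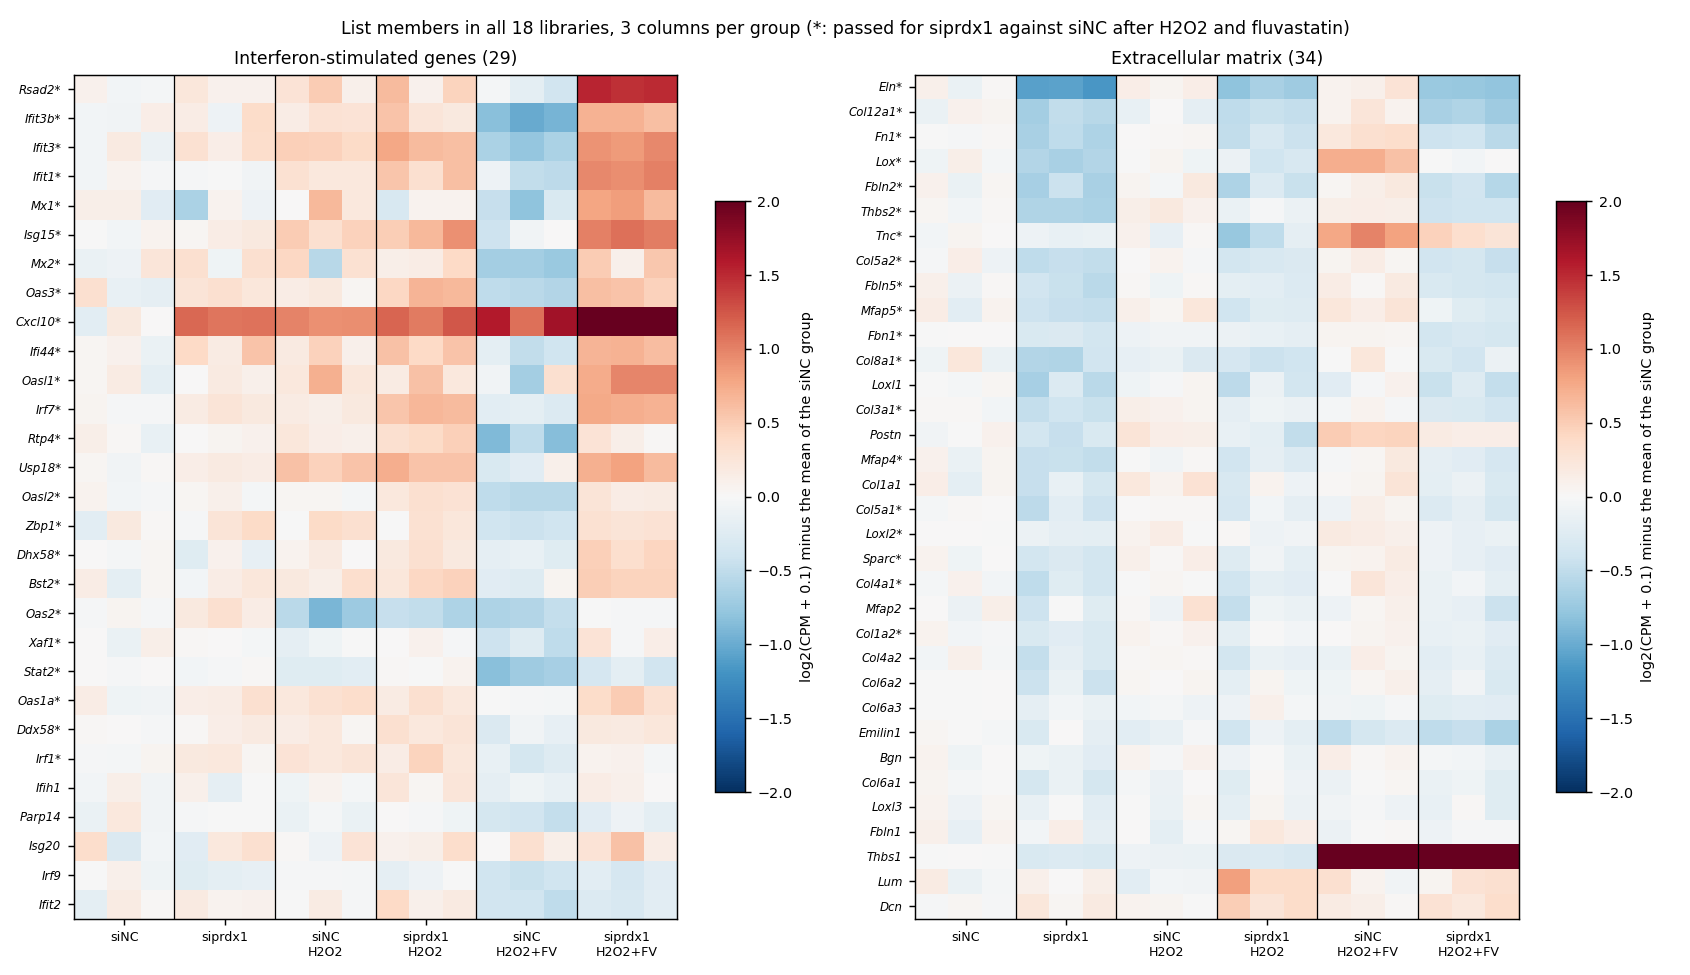
Colour shows log2(CPM + 0.1) minus the mean of the siNC group for 29 of the 30 interferon-stimulated genes (left) and 34 extracellular matrix genes (right) in all 18 libraries, 3 columns per group, with members that passed marked by an asterisk. Colours stop at 2 in either direction, which Cxcl10 and Thbs1 exceed. In the last 2 groups the 24 marked interferon genes are redder in siprdx1+H2O2+FV and the 19 marked matrix genes bluer.

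For part of the list the interferon difference was smaller without fluvastatin. Of the same 30 members 5 rose after H2O2 (median 0.16, against 0.901% of all genes higher) and 2 without H2O2 (median 0.11, against 0.657%). The knockdown effect with fluvastatin exceeded that after H2O2 for 12 members and that without H2O2 for 10, against 0.463% and 0.146% of all genes higher in the test of each difference. At an unadjusted p below 0.05 the difference stood for 25 members in each test, and 18 and 20 of the 30 did not pass after adjustment. Irf7 alone passed in all 3 treatments, with 0.46 ± 0.05 after H2O2 and 0.21 ± 0.05 without. Rsad2 had 0.09 ± 0.12 after H2O2 and 0.14 ± 0.13 without, and its effect with fluvastatin was larger by 1.62 ± 0.17 and 1.58 ± 0.17 (edgeR adjusted p = 4.07e-06 and 3.22e-05). Cxcl10 was among the 12, with an effect of 0.20 ± 0.13 after H2O2 and a difference of 0.90 ± 0.17 (edgeR adjusted p = 0.012). It was not among the 10, since its effect without H2O2 was 1.11 ± 0.14 and the difference was -0.02 ± 0.18 (edgeR adjusted p = 0.987).

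The summed level of the 30 genes was 629 to 649 CPM in siNC+H2O2+FV, below the 795 to 811 CPM of siNC and the 848 to 853 CPM of siNC+H2O2. In siprdx1+H2O2+FV it was 976 to 996 CPM, above the 826 to 861 CPM of siprdx1 and overlapping the 951 to 983 CPM of siprdx1+H2O2. Rsad2, Ifit3 and Ifit1 were highest in siprdx1+H2O2+FV of all 6 groups. The macrophage sum overlapped between the fluvastatin groups, and of 22 macrophage markers 0 rose and 2 fell there, Marco at -0.46 ± 0.06 and Mpeg1 at -0.38 ± 0.06. In the other treatments the macrophage sum was lower in the knockdown without overlap, at 9869 to 10147 CPM against 11569 to 12233 CPM after H2O2 and at 9516 to 9843 CPM against 10255 to 11138 CPM without H2O2. The median effect over the 22 markers was 0.06 with fluvastatin, -0.18 after H2O2 and -0.06 without. The difference between the effects with fluvastatin and after H2O2 passed for 0 of the 22 in edgeR, with 15 at an unadjusted p below 0.05, for 9 in DESeq2 and for 1 in limma voom. The part of the macrophage markers in the interferon and chemokine differences between treatments was not tested.

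**Figure D4:**
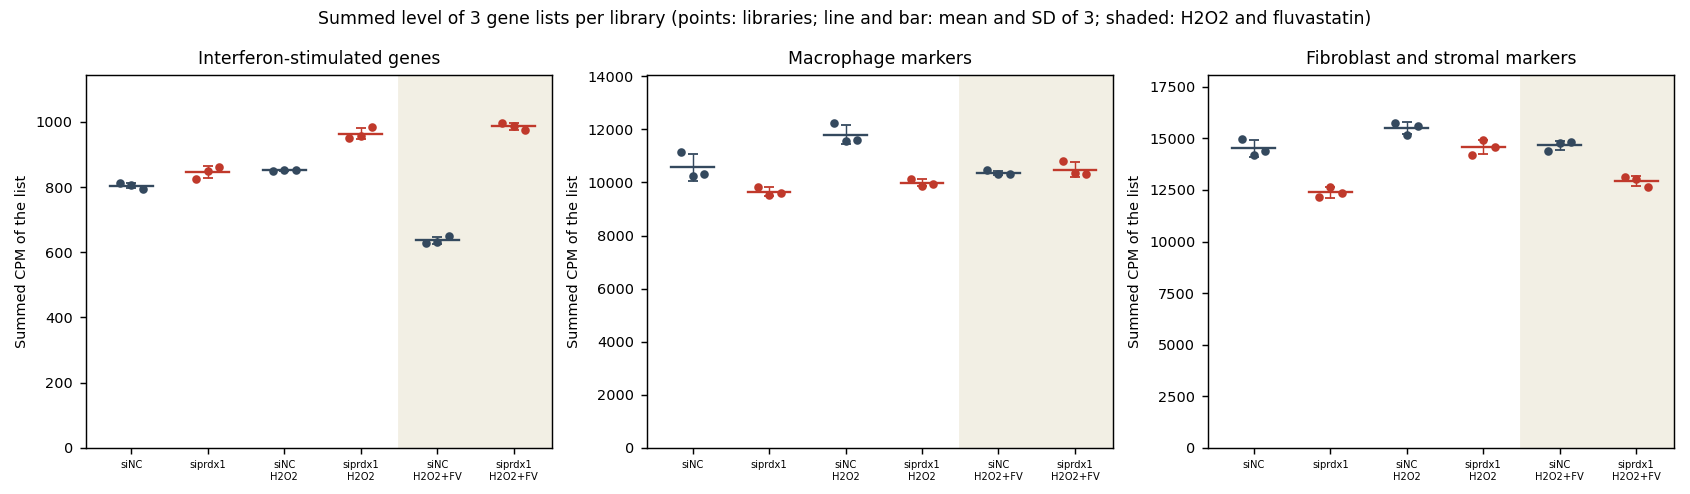
Summed CPM (y axis, from 0) of the interferon list, the macrophage markers and the fibroblast markers in each of the 18 libraries (points), by group (x axis), with the mean and SD of 3. With H2O2 and fluvastatin the interferon sums, 629 to 649 against 976 to 996 CPM, do not overlap, and the macrophage sums do. In the other 2 pairs the macrophage sums of siprdx1 lie below those of siNC.

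Some chemokines of the CXC and CC families were higher in the knockdown too. NF-kappaB drives these genes, and among its own targets are the inhibitors Nfkbia and Tnfaip3 that end the response. Of 34 tested members of this list 11 rose and 0 fell (all genes 1.62% and 2.35%), with a median of 0.16. The risen members were Cxcl1, Cxcl5, Tnf, Ccl2, Cxcl2, Ccl7, Tnfaip3, Nfkbia, Il1rn, Ptges and Rela, between 0.19 and 2.44. The other 23, among them the chemokines Ccl3, Ccl4, Ccl5, Ccl6, Ccl8, Ccl9, Ccl12, Cxcl12 and Cxcl16, lay between -0.28 and 0.35 and did not pass. The count was 7 without siNC+H2O2+FV replicate 1, 6 without its replicate 2 and 7 without siprdx1+H2O2+FV replicate 1 or 2. Cxcl1 (ENSMUSG00000029380, chromosome 5, 90891241 to 90893115), which attracts neutrophils, went from 18.4, 19.4 and 19.2 CPM to 43, 37.1 and 39 CPM (1.06 ± 0.10, edgeR adjusted p = 2.43e-07). Cxcl5 was low, at 1.29, 0.788 and 0.734 CPM, and rose to 6.18, 3.81 and 5.1 CPM (2.44 ± 0.27, edgeR adjusted p = 4.9e-06). Cxcl10, a chemokine for T cells and also an interferon target, went from 10.4, 7.39 and 11 CPM to 19.8, 20.5 and 21.4 CPM (1.10 ± 0.12, edgeR adjusted p = 2.55e-06). All 3 had every knockdown library above every control library.

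The inflammatory mediators Tnf and Ccl2 changed less in fold but from higher levels. Tnf went from 20.6, 21 and 23.3 CPM to 33.4, 34.4 and 32.5 CPM (0.63 ± 0.08, edgeR adjusted p = 1.58e-05). Ccl2, the monocyte chemokine, went from 254, 249 and 296 CPM to 414, 404 and 373 CPM (0.58 ± 0.08, edgeR adjusted p = 4.26e-05). After H2O2 neither passed, with -0.01 ± 0.08 for Tnf and 0.00 ± 0.08 for Ccl2, and both differences between treatments passed (edgeR adjusted p = 0.00421 and 0.0104). Cxcl2 changed direction between treatments, with 0.57 ± 0.09 after H2O2 and fluvastatin, -0.84 ± 0.10 after H2O2 and -0.42 ± 0.11 without (edgeR adjusted p = 0.000228, 1.79e-05 and 0.0468). In the test of the signed difference from the effect after H2O2, 7 members were higher, against 0.463% of all genes. They were Cxcl1, Tnf, Ccl2, Cxcl2, Ccl3, Ccl7 and Nfkbiz, of which Ccl3 and Nfkbiz did not pass with fluvastatin. After H2O2 alone 1 of the 34 rose and 5 fell (all genes 0.901% and 1.83%). Without H2O2 4 rose and 1 fell (all genes 0.657% and 1.67%), with a median of 0.10. Only Cxcl2 passed as higher than without H2O2 (all genes 0.146%), with 6 members at an unadjusted p below 0.05.

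Many genes of the extracellular matrix were lower in the knockdown. The list covers fibrillar collagens, the elastic fibre (elastin, fibrillins, fibulins and microfibril proteins), the lysyl oxidases that crosslink both, and adhesive glycoproteins such as fibronectin. Of 34 members 19 fell and 0 rose, with a median of -0.30 against 0.005 for all genes, and the falls ran from -0.91 to -0.23. They were Eln, Fn1, Lox, Thbs2, Col12a1, Fbn1, Col5a2, Fbln5, Col3a1, Fbln2, Loxl2, Mfap5, Sparc, Mfap4, Tnc, Col1a2, Col5a1, Col4a1 and Col8a1. The other 15 lay between -0.34 and 0.18. Omitting any 1 library gave 14 to 20 falls, and 26 members fell with GC and length offsets.

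Elastin showed the largest fall of the list. Eln (ENSMUSG00000029675, chromosome 5, 134702593 to 134747323) went from 314, 319 and 360.0 CPM to 179, 176 and 173 CPM, a change of -0.91 ± 0.06 (edgeR adjusted p = 3.08e-09). Fn1, the fibronectin gene (ENSMUSG00000026193, chromosome 1, 71585520 to 71653200), went from 516, 556 and 571 CPM to 335, 339 and 308 CPM (-0.74 ± 0.06, edgeR adjusted p = 1.55e-08). Lox, which encodes lysyl oxidase, went from 1877, 1870.4 and 1697 CPM to 1134, 1096 and 1143 CPM (-0.69 ± 0.07, edgeR adjusted p = 4.07e-07). The knockdown libraries of all 3 genes lay close together and below every control library. Col12a1, a collagen that sits on fibril surfaces, fell by 0.79 ± 0.08 on the log2 scale and Thbs2, a matricellular thrombospondin, by 0.53 ± 0.05. Fbn2, a fibrillin outside the list, was among the 10 largest falls chosen in the same way, from 14.7, 13.8 and 13.7 CPM to 7.53, 6.7 and 6.1 CPM (-1.05 ± 0.11, edgeR adjusted p = 3.03e-06). Svep1, a large adhesion protein of the matrix, fell by 0.57 ± 0.04 (edgeR adjusted p = 1.67e-08).

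Many matrix genes were lower in all 3 treatments. Of 34 members 16 fell and 2 rose after H2O2 (all genes 1.83% lower), and 23 fell without H2O2 (all genes 1.67% lower). Of the 19 falls with fluvastatin, 13 had passed in both other treatments. Eln had -0.83 ± 0.06 after H2O2 and -1.11 ± 0.06 without. Lox, Thbs2 and Fbn1 fell more with fluvastatin than after H2O2, by differences of -0.43 ± 0.09, -0.30 ± 0.07 and -0.34 ± 0.06 (edgeR adjusted p = 0.0263, 0.0485 and 0.00358), against 0.189% of all genes lower in that test. With GC and length offsets the Fbn1 difference was -0.21 and still passed. None of the 3 differed from its value without H2O2 in the same test. Ltbp2 (-0.56 ± 0.07) and Ltbp1 (-0.26 ± 0.05), matrix proteins of the LTBP family, were the only members of 21 in the TGF-beta list that passed.

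Fibroblast markers moved with the matrix genes in part. The summed level of 14 fibroblast markers, 12 of them tested, was 14389 to 14814 CPM in siNC+H2O2+FV and 12651 to 13126 CPM in siprdx1+H2O2+FV. The 2 that fell, Col3a1 and Mfap5, are also in the matrix list. The 7 tested markers outside the matrix list (Pdgfra, Pi16, Dpt, Fap, Cd34, Tcf21 and Ly6a) summed to 1328 to 1409 CPM and 1346 to 1412 CPM, and 0 of the 7 passed in edgeR, with 3 at an unadjusted p below 0.05, 2 passing in DESeq2 and 1 in limma voom. The smooth muscle and pericyte sum was 2623 to 2811 CPM in the controls and 2308 to 2569 CPM in the knockdown, without overlap. The endothelial sum, over 12 markers, was 167 to 181 CPM in the controls and 152 to 158 CPM in the knockdown. The 7 tested endothelial markers had a median of -0.26, with 6 of 7 below 0. Of these Cdh5, VE-cadherin, passed (-0.26 ± 0.06, edgeR adjusted p = 0.0135). The part of these cell types in the matrix result was not tested. Of 20 matrix proteases and inhibitors 4 fell (Adamts12, Mmp12, Adamts9 and Timp3) and 2 rose (Plaur and Mmp9) (all genes 2.35% and 1.62%). The count of falls became 2 without siprdx1+H2O2+FV replicate 2. Mmp12 did not pass without siNC+H2O2+FV replicate 1 or siprdx1+H2O2+FV replicate 2, Adamts9 without siprdx1+H2O2+FV replicate 1, and Mmp9 without siNC+H2O2+FV replicate 2 or siprdx1+H2O2+FV replicate 1 (highest edgeR adjusted p 0.059, 0.0578 and 0.0608). Plaur, the urokinase receptor, went from 86.3, 87.3 and 90.4 CPM to 113, 112 and 111 CPM (0.35 ± 0.06, edgeR adjusted p = 0.000986) and differed from its effect after H2O2 by 0.52 ± 0.09 (edgeR adjusted p = 0.00247).

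Some chaperones and degradation factors of the endoplasmic reticulum were higher in the knockdown. Unfolded protein in this compartment activates ATF6, XBP1 and ATF4, and the first of these acts through the ER stress element, ERSE, in chaperone promoters. Of 23 members 8 rose and 0 fell, with a median of 0.18, and the other 15 lay between -0.02 and 0.44. The ERSE (CCAAT, any 9 bases, CCACG, on either strand) was found in front of 3 of the 6 risen members with a promoter entry (50%), for 0.157% of tested genes and for 0.113% of all 32851 promoters. It was also found for 9 of the 19 list members with an entry (47.4%), risen or not. These 3 were the only ones to hold it among the 198 risen genes with an entry, and 0 of the 267 genes that fell held it. The 3 promoters are shown in the same format, with the match in capitals.
Hspa5 promoter, chr2:34771840-34772089, plus strand: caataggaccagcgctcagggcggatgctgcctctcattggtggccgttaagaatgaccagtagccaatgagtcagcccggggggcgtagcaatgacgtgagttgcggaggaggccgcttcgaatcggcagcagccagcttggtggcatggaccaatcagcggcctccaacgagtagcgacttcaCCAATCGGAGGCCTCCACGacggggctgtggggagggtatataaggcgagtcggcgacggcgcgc
Creld2 promoter, chr15:88819396-88819645, plus strand: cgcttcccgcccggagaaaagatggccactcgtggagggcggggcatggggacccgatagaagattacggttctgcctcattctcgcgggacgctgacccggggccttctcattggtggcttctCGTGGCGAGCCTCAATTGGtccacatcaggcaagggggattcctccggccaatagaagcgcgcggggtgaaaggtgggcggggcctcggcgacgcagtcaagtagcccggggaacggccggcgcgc
Derl3 promoter, chr10:75893148-75893397, plus strand: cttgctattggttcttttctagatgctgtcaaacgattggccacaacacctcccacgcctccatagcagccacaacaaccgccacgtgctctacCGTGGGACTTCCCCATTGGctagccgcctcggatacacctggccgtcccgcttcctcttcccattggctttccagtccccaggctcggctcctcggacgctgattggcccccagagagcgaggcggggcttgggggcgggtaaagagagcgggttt
The match begins 65 bases before the start in Hspa5, 126 bases in Creld2 and 156 bases in Derl3, and in the last 2 it is on the opposite strand. Distances are from the RefSeq start. For Hspa5 GENCODE M21 sets the start further upstream, at 34771970, so the match lies inside the gene in that annotation.

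Hspa5 (ENSMUSG00000026864, chromosome 2, 34771970 to 34777547), which encodes the chaperone BiP, went from 1401, 1423 and 1329 CPM to 1916, 1801 and 1824 CPM (0.42 ± 0.05, edgeR adjusted p = 1.58e-05). Creld2, a secreted disulfide isomerase-like protein, went from 25.9, 28.9 and 25.9 CPM to 43.1, 47.6 and 43.2 CPM (0.73 ± 0.08, edgeR adjusted p = 4.5e-06). Every knockdown library lay above every control library for both. Derl3, a channel component for the export of misfolded proteins, rose by 2.70 ± 0.33 (edgeR adjusted p = 1.58e-05). It went from a low level of 0.224, 0.295 and 0.459 CPM to 1.98, 2.84 and 1.68 CPM. This was the largest rise among named genes that passed, averaged at least 1 CPM and did not overlap between groups. Derl3 reached that average only through the siprdx1 libraries. Herpud1 (0.46 ± 0.06), Pdia4 (0.38 ± 0.04), Hyou1, Dnajb11 and Derl1 also rose. In the other treatments 7 members rose after H2O2 and 6 without (all genes 0.901% and 0.657%), and 5 of the 8 passed in all 3. The effect differed from that after H2O2 or without it for 0 of 23 members in edgeR, DESeq2 and limma voom, with 5 and 4 at an unadjusted p below 0.05. GC and length offsets raised the count to 15, and leaving out 1 library gave 6 to 8.

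Targets of ATF4, the factor of the integrated stress response, gave a mixed picture. Of 31 members 3 rose and 1 fell (all genes 1.62% and 2.35%), with a median of 0.11. Asns, asparagine synthetase, went from 42.8, 43 and 42.1 CPM to 55.6, 49 and 54.5 CPM (0.31 ± 0.06, edgeR adjusted p = 0.0038), and Shmt2, of mitochondrial serine metabolism, rose by 0.41 ± 0.07. Trib3, a pseudokinase, had 0.57 ± 0.11 and did not pass without siprdx1+H2O2+FV replicate 1 (0.44, edgeR adjusted p = 0.0546). Slc38a2, the amino acid carrier SNAT2, went the other way, from 291, 273 and 251 CPM to 214, 207 and 225 CPM (-0.34 ± 0.06, edgeR adjusted p = 0.00297). Its effect was 0.18 ± 0.06 after H2O2 and 0.22 ± 0.06 without, and it was the only gene of 16432 whose effect passed as lower than without H2O2 (0.00609%). That difference was -0.56 ± 0.09 (edgeR adjusted p = 0.00542).

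Some NRF2 targets rose in the knockdown. NRF2 is released from KEAP1 by oxidants and switches on quinone reduction, glutathione synthesis and the thioredoxin system through antioxidant response elements. Of 25 members 7 rose and 0 fell, with a median of 0.17, and the count became 4 without siprdx1+H2O2+FV replicate 1. Nqo1, the quinone reductase (ENSMUSG00000003849, chromosome 8, 107388225 to 107403206), went from 29.3, 28.2 and 27.8 CPM to 43.5, 43.3 and 45.5 CPM (0.63 ± 0.07, edgeR adjusted p = 4.98e-06). Gclc, the catalytic subunit of glutathione synthesis, went from 164, 168 and 159.7 CPM to 225, 229 and 222 CPM (0.46 ± 0.05, edgeR adjusted p = 5.18e-06). Abcc4, an exporter, rose by 0.35 ± 0.06 and Txnrd1, thioredoxin reductase, by 0.24 ± 0.04. In all 4 genes the groups did not overlap. Hmox1, heme oxygenase, was slightly lower at -0.16 ± 0.05, which did not pass (edgeR adjusted p = 0.0863) and passed with GC and length offsets at -0.24.

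The NRF2 changes were shared with the other treatments, as 5 of the 7 (Nqo1, Gclc, Abcc4, Txnrd1 and Sqstm1) passed in all 3. The effect differed from that after H2O2 or without it for 0 of 25 members in edgeR, DESeq2 and limma voom, with 7 and 6 at an unadjusted p below 0.05. Sqstm1 had 0.19 ± 0.05 and did not pass without siNC+H2O2+FV replicate 2 or 3 or siprdx1+H2O2+FV replicate 1 or 2 (highest edgeR adjusted p 0.147). The letters TGACNNNGC, the core of the antioxidant response element, were found in front of 2 of the 6 risen members with an entry (33.3%). They were found for 5 of the 20 list members with an entry, risen or not (25%). Of tested genes with an entry 14% held them. Gsta2, a glutathione transferase that is 97.2 to 98.2% identical to Gsta1 and 2 other genes and therefore uncertain, had 1.21 ± 0.20.

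The other peroxiredoxins gave small values. Prdx2, Prdx3, Prdx4 and Prdx5 had 0.07 ± 0.07, 0.09 ± 0.06, -0.09 ± 0.06 and 0.18 ± 0.09, with overlapping groups in each. Prdx6, the 1-Cys member that uses glutathione, went from 132, 132 and 123 CPM to 149, 150.1 and 154 CPM (0.23 ± 0.05, edgeR adjusted p = 0.0131), and did not pass without siNC+H2O2+FV replicate 3 or siprdx1+H2O2+FV replicate 3 (0.0646 and 0.061). Srxn1, the sulfiredoxin that repairs overoxidized peroxiredoxins, went from 687, 673 and 649 CPM to 782, 757 and 779 CPM (0.21 ± 0.05, edgeR adjusted p = 0.00977), and did not pass without siprdx1+H2O2+FV replicate 1 (0.0605). Each of the 3 libraries per group still kept its side in both genes. Of 24 other antioxidant enzymes 2 rose, Gclc and Txnrd1, and 0 fell, with the rest between -0.13 and 0.26.

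Immediate early genes, the transcription factors and feedback regulators that cells switch on first, differed by small amounts between the siRNAs after fluvastatin. Of 26 members 3 rose (Egr3, Atf3 and Fosl1, at 0.25 to 0.27) and 0 fell, with a median of 0.12. At an unadjusted p below 0.05 there were 15, DESeq2 called 7 and limma voom 6, and 13 of the 26 had every knockdown library above every control library, against 10.8% of all genes. In edgeR each of the 3 lost its call on leaving out at least 1 library (highest edgeR adjusted p 0.0579, 0.158 and 0.25), and Fosl1 also with GC and length offsets, at 0.15. Fosl1 overlaps Ccdc85b on the opposite strand, and its value is uncertain because no strand setting of the counting is recorded. After H2O2 without fluvastatin, 16 of the 26 had fallen in the knockdown, against 1.83% of all genes lower. In the test of the signed difference, the effect with fluvastatin was higher than after H2O2 for 15 members (all genes 0.463%). Arc, Fosb, Fos and Btg2 led this difference. Without H2O2 2 members rose and 0 fell (all genes 0.657% and 1.67%), with a median of 0.06. The effect with fluvastatin differed from that without H2O2 for 0 of 26 members in edgeR, DESeq2 and limma voom. An unadjusted p below 0.05 was reached by 3 members in that test in edgeR.

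Arc (ENSMUSG00000022602, chromosome 15, 74669083 to 74672570) stood at 394, 425 and 461 CPM in siNC+H2O2+FV and at 496, 525 and 473 CPM in siprdx1+H2O2+FV, against 65.4, 61.7 and 69.4 CPM in siNC+H2O2 and 19.3, 21.5 and 21.7 CPM in siprdx1+H2O2. The knockdown effect was 0.22 ± 0.08 with fluvastatin, which did not pass (edgeR adjusted p = 0.106), and -1.65 ± 0.09 without it. The Arc effect with fluvastatin passed in DESeq2, in limma voom, without the low-count filter (the lowest, edgeR adjusted p = 0.0157) and with GC and length offsets plus the replicate block. Fosb, at 0.19 with edgeR adjusted p = 0.0909, passed in limma voom, with the block, with offsets and with both (the lowest, edgeR adjusted p = 0.0029). Fos had 193, 209.9 and 211 CPM and 223, 221 and 218 CPM with fluvastatin, and 261, 246 and 259.7 CPM and 111, 120.3 and 117 CPM after H2O2. Its effects of 0.11 ± 0.06 and -1.14 ± 0.06 differed by 1.25 ± 0.09 (edgeR adjusted p = 1.04e-08). Btg2, an antiproliferative gene, showed 0.01 ± 0.04 with fluvastatin and -1.05 ± 0.04 after H2O2. With fluvastatin none of the 3 passed in edgeR's main setting, and the siRNA groups overlapped for Btg2 and not for Arc or Fos.

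**Figure D5:**
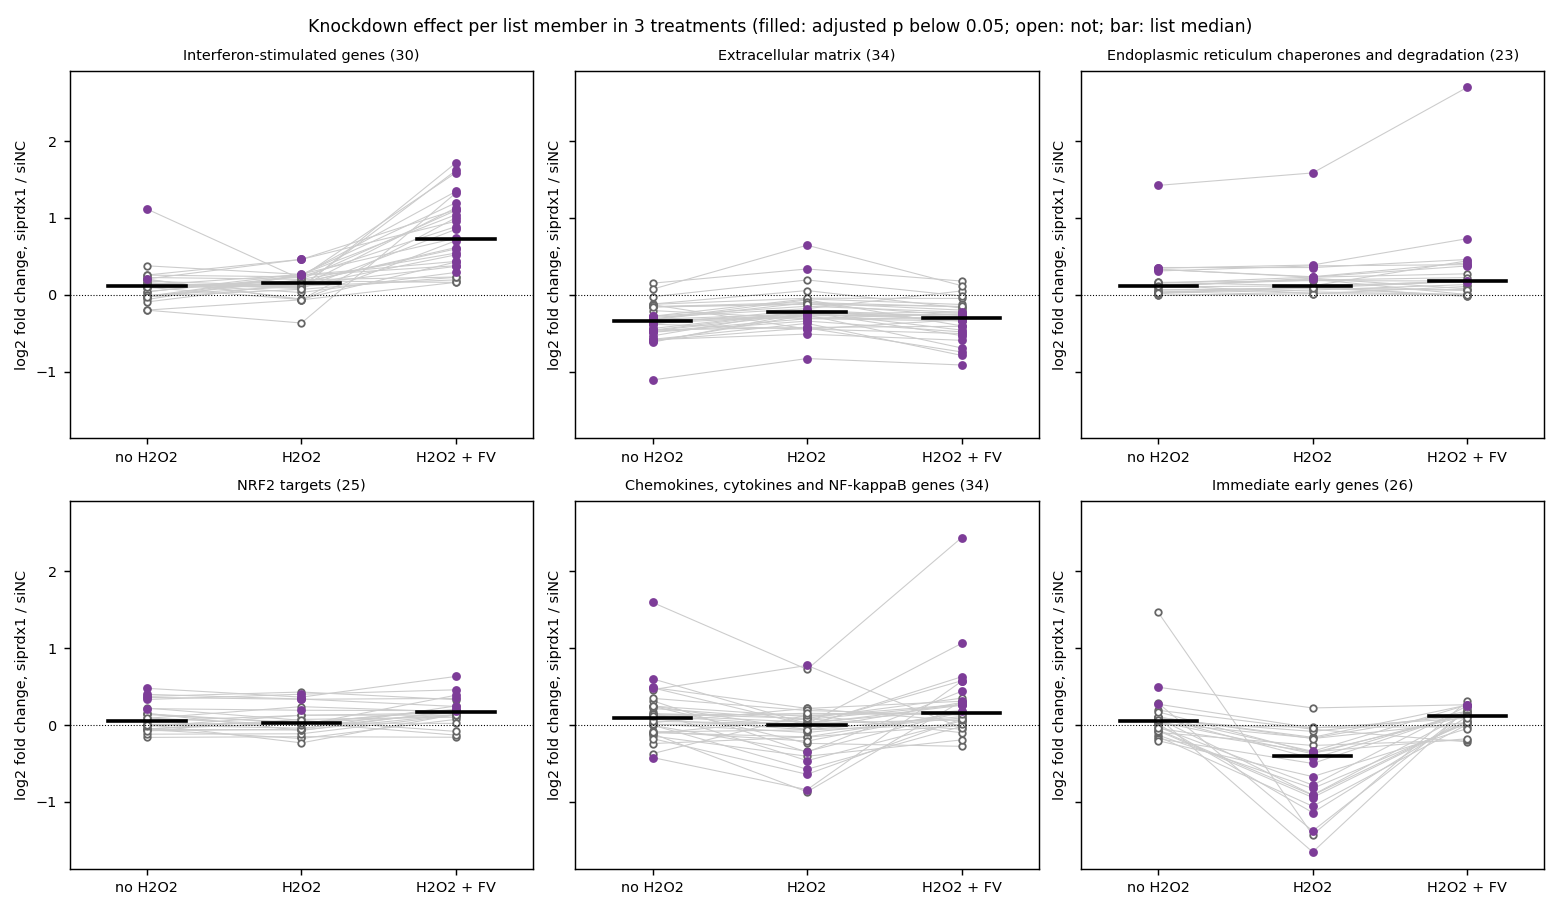
Log2 fold change of siprdx1 against siNC (y axis) for each tested member of 6 gene lists without H2O2, after H2O2 and after H2O2 and fluvastatin (x axis), with lines joining a member, filled points for an adjusted p below 0.05 and a bar for the list median. The interferon median is 0.72 in the last treatment against 0.11 and 0.16, the matrix medians are below 0 in all 3, and the immediate early median is -0.40 after H2O2 alone.

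Leydig cell genes and the statin's own pathway changed little with the knockdown. Cyp11a1 (ENSMUSG00000032323, chromosome 9, 58006411 to 58027023) went from 787, 779 and 802 CPM to 705, 676 and 678 CPM (-0.20 ± 0.04, edgeR adjusted p = 0.00839), a fall that did not pass without siprdx1+H2O2+FV replicate 2 (-0.19, 0.0543). Star stood at 492, 529.6 and 485 CPM and at 455, 449 and 469 CPM, and its -0.13 ± 0.05 did not pass (edgeR adjusted p = 0.159), although the groups did not overlap. Ptgds, a prostaglandin D synthase of Leydig cells, went from 197, 206 and 214 CPM to 275, 279 and 264 CPM (0.41 ± 0.06, edgeR adjusted p = 0.000267). It and Cyp11a1 were the only members of 20 tested that passed. Of 27 genes of cholesterol synthesis and uptake 0 passed in edgeR, DESeq2 or limma voom, and 4 had an unadjusted p below 0.05, with a median of -0.08 and values from -0.29 to 0.11. In edgeR 0 members also passed among 31 nuclear subunits of oxidative phosphorylation (-0.07 to 0.25), 13 mitochondrially encoded transcripts (-0.20 to 0.10), 33 ribosomal proteins (-0.09 to 0.32) and 26 genes of the BCL2 family and ferroptosis (-0.25 to 0.62). At an unadjusted p below 0.05 these lists had 4, 1, 6 and 3 members, and DESeq2 called 1 ribosomal protein gene and limma voom none. The ribosomal median was 0.175 with 30 of 33 above 0, and the nuclear subunit median 0.09 with 26 of 31 above 0. In 10 of the 33 ribosomal genes every knockdown library lay above every control library, against 10.8% of all genes. The mitochondrially encoded median was -0.074 with 11 of 13 below 0, and that of the BCL2 and ferroptosis list -0.004.

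The other large falls were in genes of varied function. Atp8a2, a phospholipid flippase, went from 7.51, 6.55 and 5 CPM to 2.88, 3.44 and 2.55 CPM (-1.08 ± 0.17, edgeR adjusted p = 0.000287). Gdf6, a bone morphogenetic protein, went from 11.9, 11.9 and 12.3 CPM to 6.67, 6.84 and 6.53 CPM (-0.85 ± 0.09, edgeR adjusted p = 3.87e-06), and Cpxm2 fell by 0.98 ± 0.15. Atp8a2 spread more within the controls than Gdf6, and neither overlapped. Rgs5 (-1.08), Cap2 (-1.06), Ptn (-0.96) and Anxa8 (-0.93) lay below 3 CPM and lost their calls without single libraries, in 4, 5, 5 and 6 of the 6 omissions (highest edgeR adjusted p 0.188, 0.181, 0.0936 and 0.145). Among the largest rises Sh2d6, an SH2 domain gene, went from 3.47, 2.61 and 3.26 CPM to 7.03, 7.2 and 7.41 CPM (1.21 ± 0.14, edgeR adjusted p = 6.09e-06).

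Across all genes the knockdown profile with fluvastatin overlapped in part with the other 2 profiles. After H2O2 448 genes passed (2.73%) and without H2O2 383 (2.33%). Of the 266 rises 54 also rose after H2O2 (20.3% of these rises and 36.5% of the rises there) and 53 without H2O2 (19.9% and 49.1%). Of the 386 falls 84 also fell after H2O2 (21.8% and 28%) and 157 without (40.7% and 57.1%). In all 3 treatments 34 genes rose and 69 fell. A further 193 rises and 214 falls passed with fluvastatin and in neither other treatment, but only 31 and 17 of them passed a test of the difference from another treatment. The difference from the effect after H2O2 passed for 107 genes (0.651%), 76 higher and 31 lower, and that from the effect without H2O2 for 25 (0.152%), 24 higher and 1 lower. The count of 107 fell to between 55 and 69 without replicate 1 or 3 of siNC+H2O2, replicate 1 or 2 of siNC+H2O2+FV, replicate 3 of siprdx1+H2O2 or any replicate of siprdx1+H2O2+FV, its 31 lower genes ranged from 6 to 53 over the 12 omissions, and the count of 25 fell to 16 without siprdx1 replicate 1. Of the 24 higher genes 10 were interferon-stimulated genes. The Pearson correlation of fold changes across the 16432 genes, which are not independent replicates, was 0.216 with the effect without H2O2 and 0.12 with that after H2O2.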

How the data were processed

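RNA-seq of 18 libraries was deposited as 1 table of raw read counts per gene, which the authors made with HISAT2 and HTSeq on mm10, per the submitters' processing notes. Versions, annotation and strand setting are not given in the sources used here. Libraries were grouped by their titles.

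Counts were fitted with edgeR 4.0.16 (R 4.3.3): filterByExpr by group, TMM, 6 group means over all 18 libraries (12 residual degrees of freedom), robust quasi-likelihood tests and Benjamini-Hochberg adjustment within each contrast at 0.05. SE is the log2 fold change divided by the square root of F. Differences between treatments were contrasts of contrasts. Of 55487 genes, 16432 were tested. Positions, GC content and length came from GENCODE M21, which held 55141 of the IDs. The fit was tested on simulated counts.

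Replicate libraries within each fluvastatin group were compared. Their counts differed by 3.47 to 9.32 chi-square units per degree of freedom, so none of these was a copy. The libraries of the other groups were not compared in this way. No pairing of the fluvastatin libraries by replicate number was seen, though the check cannot exclude a shared day or animal. Alternatives were other scalings, no low-count filter, GC and length offsets, a replicate block, DESeq2 1.42.0, limma voom 3.58.1, fits of only the groups compared, and each library left out. The members and the 33 gene lists were chosen with earlier results of these data known. Named genes are Prdx1 and its copies, the 10 largest rises and falls (passed, at least 1 CPM, no overlap, no clone name), up to 5 passed members per list by p, a fixed set of steroid, redox and marker genes, and up to 5 genes per direction for each difference. Other members of a counted group were named after their values were seen. The values of 1 interferon list member are not reported here, though it is in the counts and sums.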

Additional observations from a re-analysis of the deposited data

Results flagged for a closer look

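The knockdown effect after H2O2 and fluvastatin differed, by a test of the difference, from the effect after H2O2 for 10 named genes (edgeR adjusted p from 1.47e-10 to 0.0131). By signed difference Arc was higher by 1.87 on the log2 scale, Fosb by 1.57, Fos by 1.25, Plk2 by 1.13 and Btg2 by 1.06. Their effects with fluvastatin were small, at 0.22, 0.19, 0.11, 0.23 and 0.01 in that order, and after H2O2 all lay below 0. With fluvastatin only Plk2 passed in the main setting, and it kept its call in 1 of 6 omissions (highest edgeR adjusted p 0.0946). Pde3a, a cyclic nucleotide phosphodiesterase, was lower by a difference of -0.64, Slc38a2 by -0.52, Ermp1 by -0.48, Fbn1 by -0.34 and Svep1 by -0.32. The Svep1 difference did not pass without siNC+H2O2 replicate 1 or siprdx1+H2O2+FV replicate 1 (highest edgeR adjusted p 0.0611). Among the 18 libraries, siprdx1+H2O2 replicates 1 and 2 had slopes of log2 CPM on GC content of -0.114 and 0.172 per 10% GC, and the 6 fluvastatin libraries -0.138 to 0.0908. With GC and length offsets the differences of Pde3a, Ermp1, Fbn1 and Svep1 shrank by over 1.5 times, to -0.39, -0.32, -0.21 and -0.185, and that of Slc38a2 to -0.37, and all 5 still passed.

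The effect also differed from that without H2O2 for 6 named genes. Rsad2 was larger by 1.58, Ifit1 by 1.38, Ifit3 by 1.33, Irf7 by 0.75 and Oasl2 by 0.70, while Slc38a2 was lower by a difference of -0.56. Slc38a2 is on both lists.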

How the results depend on the processing

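Interferon rises (23 to 25), matrix falls (14 to 20) and the Prdx1 fall (-1.50 to -1.44) kept their direction when each library was left out. The 652 genes became 320 to 632 (higher 128 to 282, lower 192 to 350), the difference from the effect after H2O2 55 to 136 (higher 49 to 83, lower 6 to 53), and that from the effect without H2O2 16 to 26 (higher 15 to 25). Chemokine rises were 6 to 10, NRF2 rises 4 to 7, protease falls 2 to 4 and YAP/TEAD falls 1 to 3.

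GC and length offsets gave 1108 genes (530 higher), of which 534 were shared, and 1295 with the replicate block as well (634 higher, 661 lower). A size of at least 1 left 34 (24 higher, 10 lower), and no low-count filter gave 400 higher. For the difference from H2O2, no filter, offsets, offsets with block and DESeq2 gave 281, 308, 439 and 206 genes (higher 168, 237, 311 and 120, lower 113, 71, 128 and 86), and only the compared groups gave 14 lower. For that from the effect without H2O2 they gave 56, 82, 117 and 46 (higher 43, 73, 94 and 40, lower 13, 9, 23 and 6). Offsets gave 15 chaperone rises, 7 protease falls and 20 interferon differences from the effect without H2O2, and with the block 16, 7 and 21, with 11 NRF2 rises and 19 interferon differences from H2O2. Library size alone gave 1 YAP/TEAD fall. The cause of these moves was not tested. Btg2 became -0.015 with offsets, also with the block, and Insl3, which overlaps Jak3 and did not pass, ranged from -0.005 (without siprdx1+H2O2+FV replicate 2) to 0.693 (without its replicate 1).

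Same-numbered fluvastatin libraries correlated at 0.096, 0.002 and -0.073, so no pairing by number was seen. These correlations also carry differences between libraries such as the GC slope, so they cannot exclude a shared day or animal. The replicate block gave 704 genes, 631 of them shared, and not every library correlated best with its own number. Of 1845 single-gene values, 1677 kept direction and call, 150 lost the call, 15 gained it and 3 changed sign.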

Other observations

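The glucose transporter gene Slc2a1 and a few stress and cycle genes changed outside the groups described above. Slc2a1, which encodes GLUT1, went from 84.1, 81 and 92.3 CPM to 121, 127 and 126 CPM in siprdx1+H2O2+FV (0.54 ± 0.07, edgeR adjusted p = 5.14e-05). It differed from the effect after H2O2 by 0.51 ± 0.11 (edgeR adjusted p = 0.0233). Of 25 glycolysis and hypoxia genes Slc2a1 and Adm were the 2 that passed, against 3.97% of all genes. Adm, at 0.18, kept its call in only 1 of 6 omissions (highest edgeR adjusted p 0.0958). Hspb8, a small heat shock protein, rose by 0.27 ± 0.05, 1 of 2 rises among 19 heat shock genes. Ccnd2, a G1 cyclin, went from 249, 254 and 249.9 CPM to 205, 207 and 214 CPM (-0.27 ± 0.05, edgeR adjusted p = 0.00101). It was the 1 member of 25 replication and G1/S genes that passed, against 3.97% of all genes.

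Of 17 YAP/TEAD targets F3, the tissue factor gene, rose by 0.28 ± 0.05 and 4 fell. Ptpn14, a phosphatase, fell by 0.31 ± 0.06 (-0.20 with GC and length offsets), while Crim1, Tead1 and Cavin2 each lost the call in at least 5 of 6 omissions (highest edgeR adjusted p 0.201, 0.213 and 0.272), and Tead1 also with offsets, at -0.09. Clec4n, the phagocyte lectin Dectin-2, went from 97.7, 98.3 and 92.1 CPM to 71, 68.3 and 77 CPM (-0.42 ± 0.06, edgeR adjusted p = 0.000159). It was the 1 of 18 phagocyte receptors that passed, against 3.97% of all genes. Cldn11, a tight junction gene of Sertoli cells, rose by 0.38 ± 0.07, 1 of 12 Sertoli markers. Of 14 germ cell markers 1 was expressed enough to be tested.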
